A study of Mus musculus with 12 samples.

Results

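The lysosomal cathepsins Ctsa, Ctsb, Ctsc, Ctsd, Ctse, Ctsh, Ctsk, Ctso and Ctsz and the asparaginyl protease legumain (Lgmn) are described here in medullary thymic epithelial cells (mTECs) of the mouse. These 10 genes were taken by name from the 50600 gene identifiers of the deposited tables, and all 10 passed the filter on low counts. RNA was sequenced in 12 libraries: 6 of mTECs sorted as MHCII hi (mTEC hi) and 6 of mTECs sorted as MHCII lo (mTEC lo), which carry much and little MHC class II on their surface. All mice were 6 to 8 weeks old and of the strain labelled B6.B6CB-Psmb11tm1Smta, either Psmb11-/- (Psmb11-deficient) or Psmb11+/+ (WT), and the labels name no treatment. Psmb11 encodes beta5t, a catalytic subunit of the thymoproteasome. All labels of 8 libraries named one genotype, which gave 2 Psmb11-deficient and 2 WT libraries for each cell type. For 4 libraries the title contradicted the strain and source name, and these entered only the comparison of the cell types, unless the source of their genotype is stated. Whether the libraries came from separate mice or from pools is not in the labels, so a p-value speaks only of variation among these libraries, which may be technical.

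Cathepsins are proteases that are made as inactive precursors, sorted to endosomes and lysosomes, and activated there at low pH. Most belong to the papain family of cysteine proteases. Cathepsins D and E are aspartic proteases, cathepsin A is a serine carboxypeptidase, and legumain cuts after asparagine. In the thymus they degrade proteins into peptides for MHC class II and trim the invariant chain. Cathepsin L does the latter in the cortical epithelium, and cathepsin S in medullary antigen-presenting cells.

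Many genes of lysosomal enzymes carry the letters CACGTG close to their start, the core of the element bound by TFEB and its relatives. RefSeq promoter sequence (GRCm38.p6) was given for 7 of the 10 genes, with 2 starts each for Ctsa and Lgmn, and none was given for Ctsb, Ctse and Ctsh. The letters CACGTG, which read the same on both strands, were searched in the 250 bases before each start. They were found for 3 of the 7 genes, Ctsd, Ctsa and Lgmn. These were lower in mTEC hi, as were Ctsc, which had no match, and Ctsb, which had no window. The 30 bases around each match are shown with the match in capitals, 5′ to 3′ on the strand of the gene.
Ctsd, 245 bases before the start, chr7:142388048-142388077, minus strand: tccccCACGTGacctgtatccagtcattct
Ctsd, 98 bases before the start, chr7:142387908-142387937, minus strand: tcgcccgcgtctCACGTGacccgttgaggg
Ctsa, 12 bases before its second start, chr2:164833743-164833772, plus strand: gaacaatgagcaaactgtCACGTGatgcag
Lgmn, 49 bases before its second start, chr12:102439124-102439153, minus strand: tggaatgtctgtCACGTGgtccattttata
The same letters stand in 6.02% of all 32851 mouse promoter windows of this length, and 2 or more copies, as at Ctsd, in 0.429%. Counted by gene, they were found for 1854 of 27025. No match was found for Ctsc, Ctso, Ctsz and Ctsk, nor before the other starts of Ctsa and Lgmn. The windows of Ctsz and Ctsk are shown as those of the genes with a window that were at least 2-fold higher in mTEC hi. Distances are from the RefSeq start. The gene bounds of GENCODE M21 given below reach further upstream for Ctsd, Ctsa and Lgmn, so every stretch shown for them, apart from the first of Ctsd, lies inside those bounds. A match or its absence describes these letters in these windows and nothing more.
Ctsz, chr2:174439040-174439289, minus strand: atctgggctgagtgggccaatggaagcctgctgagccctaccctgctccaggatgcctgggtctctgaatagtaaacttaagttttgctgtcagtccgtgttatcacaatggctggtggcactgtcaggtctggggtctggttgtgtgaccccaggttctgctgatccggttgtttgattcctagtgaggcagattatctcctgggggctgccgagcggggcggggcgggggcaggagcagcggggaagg
Ctsk, chr3:95498960-95499209, plus strand: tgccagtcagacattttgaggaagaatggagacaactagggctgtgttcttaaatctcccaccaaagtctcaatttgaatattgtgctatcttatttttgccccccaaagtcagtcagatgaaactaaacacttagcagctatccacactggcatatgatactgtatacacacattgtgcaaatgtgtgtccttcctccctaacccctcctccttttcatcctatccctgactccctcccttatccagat

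Total gene reads per library ranged from 38791960 to 86793594. No 2 libraries of a cell type agreed within sampling noise (lowest chi-square per gene 7.77). Psmb11 stood at 0.85 to 1.30 CPM (counts relative to the scaled library size) in Psmb11-deficient and 7.54 to 10.3 CPM in WT mTEC hi, and at 1.17 to 1.63 CPM and 7.51 to 12.2 CPM in mTEC lo. Where labels conflict it followed the title: 8.15 CPM (H1_WT) and 7.10 CPM (L1_WT) under WT titles, 1.12 CPM (H3_KO) and 1.26 CPM (L3_KO) under knockout titles. By title over 12 libraries its log2 fold change was -3.0 in mTEC hi (edgeR adjusted p = 1.06e-05) and -2.72 in mTEC lo (adjusted p = 3.59e-05), and no library was placed in a group by it. All 9 mTEC markers were present in both cell types, with 5 higher in mTEC hi, 3 lower and 1 not called. Epcam was at 620.0 ± 16.8 CPM (SD, n = 6) in mTEC hi against 847.1 ± 60.1 CPM (n = 6) in mTEC lo. Krt5 was at 716.7 ± 84.7 CPM against 4516 ± 422 CPM, Krt14 at 274.4 ± 17.7 CPM against 2058 ± 165 CPM, and Aire at 1979 ± 186 CPM against 17.6 ± 5.35 CPM. Markers of other cell types differed between the sorted fractions. Of 10 macrophage markers 9 were higher in mTEC hi, where their summed level was 581.2 to 615.9 CPM against 49.2 to 83.2 CPM in mTEC lo (Lyz2, the marker with most reads, was at 425.4 ± 15.2 CPM against 40.9 ± 7.87 CPM). The 6 dendritic cell markers (75.8 to 86.2 CPM summed, against 27.3 to 33.0 CPM) and the 6 B cell markers (69.1 to 73.6 CPM, against 11.5 to 17.7 CPM) were all higher in mTEC hi. Granulocyte markers differed likewise (5 of 5 higher, 259.5 to 320.9 CPM summed, against 7.62 to 17.3 CPM), 5 of 10 thymocyte markers were higher, and 6 of 6 tuft cell markers were lower. Fibroblast markers went both ways, with 2 of 6 higher and 4 lower. None of the macrophage, dendritic cell, B cell and granulocyte markers was at 0 reads in a whole cell type. Some were near 0 in mTEC lo, such as Fcgr1 (0.53 CPM in mTEC hi against 0.16 CPM), Ms4a1 (4.38 CPM against 0.15 CPM) and Elane (0.38 CPM against 0.04 CPM). Such markers passed the filter through mTEC hi, so the counts of these lists include directions fixed by it. Whether the reads of these markers come from other cells or from the mTECs themselves was not tested. The part of other cells in the levels below was not tested either. In bulk libraries fewer cells of a type and less RNA per cell cannot be told apart.

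The first comparison asked how the levels of these proteases differ between mTEC hi and mTEC lo. The 10 genes split evenly, but Ctse passed the filter on low counts through mTEC hi. Its direction was fixed by that, and all counts of the 10 genes between the cell types include it. Ctse, Ctsh, Ctsz, Ctsk and Ctso were higher in mTEC hi, and Ctsd, Ctsa, Ctsb, Lgmn and Ctsc were lower (edgeR quasi-likelihood test over 12 libraries, Benjamini-Hochberg adjusted p between 8.58e-17 for Ctsh and 0.00221 for Ctso). With scaling by library size alone Lgmn and Ctsc did not pass. The cell types differ widely: 82.1% of the 23923 genes tested passed, 44.2% as higher and 38.0% as lower in mTEC hi, so that passing says little of these genes in particular. With scaling by library size alone 12907 genes were higher and 6347 lower, against 10569 and 9080 with the scaling used here. The 6 values of mTEC hi and the 6 of mTEC lo did not overlap for any of the 10 genes, which was so for 68.8% of all genes tested. Of the 10 genes 4 were at least 2-fold higher and 1 was at least 2-fold lower, against 33.5% and 12.6% of all genes. The median log2 fold change of the 10 genes was -0.10, and that of all genes tested was 0.08.

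**Figure D1:**
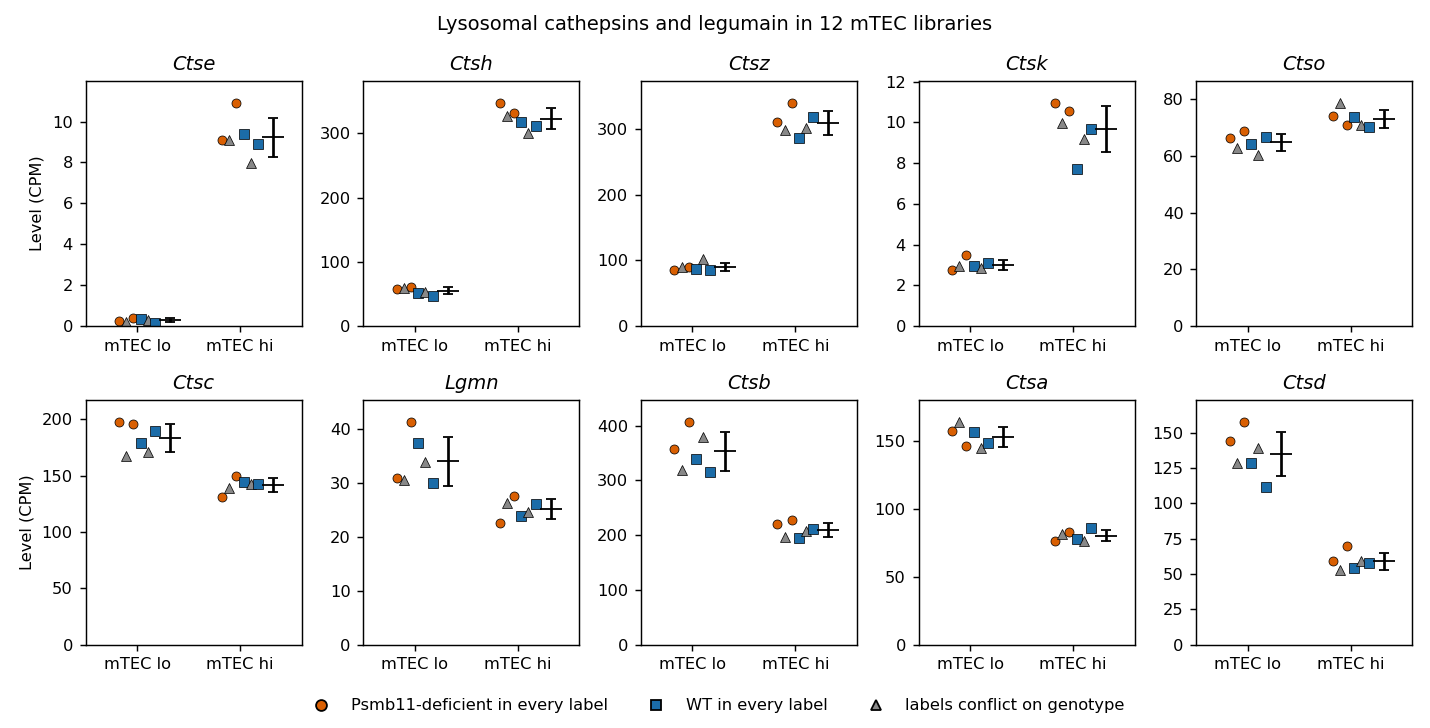
Level of each gene in every library, in CPM on axes that start at 0, with mTEC lo on the left and mTEC hi on the right of each panel. Circles, squares and triangles mark the genotype as the labels give it, and the bar beside each set of 6 points is its mean and SD. In all 10 panels the 2 sets of points do not overlap.

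Both aspartic proteases changed, in opposite directions. Cathepsin E (Ctse, ENSMUSG00000004552.16, chr1:131638306-131675505, plus strand, GRCm38, GENCODE M21) is an endosomal protease of gastric epithelium and antigen-presenting cells. Its lowest, median and highest levels were 7.99, 9.09 and 10.9 CPM in mTEC hi against 0.13, 0.28 and 0.41 CPM in mTEC lo. Every mTEC hi library stood far above every mTEC lo library, and in mTEC lo only 7 to 24 reads per library lay in the gene. Ctse passed the filter through mTEC hi, so its direction was fixed by it. The means of 9.22 ± 0.94 CPM and 0.28 ± 0.10 CPM (SD, n = 6 each) gave a log2 fold change of 5.05 (SE 0.18), or 33.0-fold. Among the 10 genes this was the change of greatest size, in the gene of lowest level per length.

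Cathepsin D (Ctsd, ENSMUSG00000007891.16, chr7:142375911-142388038, minus strand) is the main aspartic protease of lysosomes, and the gene with CACGTG at 2 places in the window shown above. Its levels were 52.8, 58.5 and 69.9 CPM (lowest, median, highest) in mTEC hi and 111.7, 133.9 and 157.6 CPM in mTEC lo. The highest mTEC hi library thus lay below the lowest mTEC lo library. The mean fell from 134.9 ± 15.7 CPM in mTEC lo to 58.8 ± 6.07 CPM in mTEC hi, 2.29-fold lower (log2 fold change -1.20, SE 0.06). Of its 2351 exonic bases 808 are shared with Gm49369 on the same strand, a gene with 0 reads in all 12 libraries. Reads in shared bases may have been counted for neither gene, so the CPM of Ctsd may be too low. In TPM (a share of transcripts, from a separate count) it was lower in mTEC hi too, at 114.7 ± 11.3 against 203.3 ± 12.9.

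Among the papain family, cathepsin H (Ctsh, ENSMUSG00000032359.14, chr9:90054152-90076089, plus strand), which acts mainly as an aminopeptidase, had the highest level per length in mTEC hi (508.7 ± 29.9 TPM, a share of transcripts, which corrects for length). It stood at 301.4, 322.4 and 347.0 CPM (lowest, median, highest) in mTEC hi and at 46.1, 55.0 and 60.3 CPM in mTEC lo. No other of the 10 genes apart from Ctse differed by as large a factor. The means were 322.8 ± 16.1 CPM and 54.7 ± 5.51 CPM, 5.91-fold higher in mTEC hi (log2 fold change 2.56, SE 0.06).

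Cathepsin Z (Ctsz, ENSMUSG00000016256.10, chr2:174427493-174439039, minus strand), a carboxypeptidase of myeloid cells and epithelia, differed in the same direction. It was at 285.9, 306.6 and 338.9 CPM (lowest, median, highest) in mTEC hi and at 84.5, 88.9 and 102.0 CPM in mTEC lo. The means of 308.9 ± 18.4 CPM and 90.0 ± 6.43 CPM differed 3.44-fold (log2 fold change 1.78, SE 0.06). Per length it was second only to Ctsh in mTEC hi, at 381.6 ± 17.6 TPM, and below Ctsd, Ctsa, Ctsb and Ctsc in mTEC lo.

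Cathepsin K (Ctsk, ENSMUSG00000028111.4, chr3:95499256-95509362, plus strand), the collagen-degrading protease of osteoclasts, was scarce in both cell types. Its levels were 7.69, 9.82 and 10.9 CPM (lowest, median, highest) in mTEC hi and 2.75, 2.93 and 3.47 CPM in mTEC lo. The means of 9.67 ± 1.15 CPM and 3.0 ± 0.25 CPM differed 3.21-fold (log2 fold change 1.68, SE 0.10). Ctsk lies 17423 bases from Ctss, the gene of cathepsin S, with 0 protein-coding genes between them. Ctss was also higher in mTEC hi (211.8 ± 7.67 CPM against 52.9 ± 3.27 CPM, log2 fold change 2.0, SE 0.05).

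Cathepsin O (Ctso, ENSMUSG00000028015.3, chr3:81932601-81956725, plus strand), a widely expressed and little studied member of the family, was nearly level. It stood at 70.2, 72.4 and 78.5 CPM (lowest, median, highest) in mTEC hi and at 60.3, 65.2 and 68.7 CPM in mTEC lo. The 2 ranges are separated by less than 2 CPM. The means of 73.0 ± 3.11 CPM and 64.8 ± 3.02 CPM gave a log2 fold change of 0.17 (SE 0.05), the change of smallest size among the 10 genes. In the 8 libraries with undisputed genotype it was 0.12 and did not pass (edgeR adjusted p = 0.0555).

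Cathepsin B (Ctsb, ENSMUSG00000021939.7, chr14:63122462-63145923, plus strand), an abundant endopeptidase and dipeptidyl carboxypeptidase, was lower in mTEC hi. Its levels were 194.9, 209.3 and 227.4 CPM (lowest, median, highest) in mTEC hi and 315.8, 348.4 and 407.2 CPM in mTEC lo. The means of 209.6 ± 13.0 CPM and 353.0 ± 35.8 CPM gave a log2 fold change of -0.75 (SE 0.05). Per length it followed Ctsd and Ctsa in mTEC lo, and Ctsh, Ctsz, Ctsd, Ctsc and Ctsa in mTEC hi.

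Cathepsin C (Ctsc, ENSMUSG00000030560.17, chr7:88278085-88310888, plus strand), the dipeptidyl peptidase that activates granule serine proteases, differed less. It was at 131.3, 142.6 and 149.5 CPM (lowest, median, highest) in mTEC hi and at 167.4, 184.4 and 197.8 CPM in mTEC lo, a log2 fold change of -0.37 (SE 0.05). The call depended on the scaling: with library size alone it was -0.09 (edgeR adjusted p = 0.104), while that scaling shifted the median over all genes from 0.08 to 0.37. Relative to that median Ctsc was lower under both scalings. A change of scaling shifts all genes nearly alike, so this could not have come out otherwise and does not back the call. In TPM it was level, at 98.2 ± 3.35 in mTEC hi and 97.0 ± 7.57 in mTEC lo (SD, n = 6 each), with overlapping ranges.

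The serine carboxypeptidase cathepsin A (Ctsa, ENSMUSG00000017760.15, chr2:164832873-164841032, plus strand), which also protects neuraminidase and beta-galactosidase in the lysosome, was lower in mTEC hi. It stood at 76.1, 79.3 and 86.1 CPM (lowest, median, highest) in mTEC hi and at 144.8, 152.3 and 164.0 CPM in mTEC lo. The means of 80.1 ± 4.06 CPM and 152.8 ± 7.55 CPM gave a 1.91-fold lower level (log2 fold change -0.93, SE 0.05). Its exons share 819 bases with Neurl2 and Pltp on the other strand, and those of Ctsb share 774 bases with Fdft1. The counts ignore strand, so reads in these stretches cannot be assigned to one gene, and the values of Ctsa and Ctsb carry that uncertainty.

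Legumain (Lgmn, ENSMUSG00000021190.14, chr12:102394084-102439813, minus strand), which also processes other cathepsins, was at 22.6, 25.3 and 27.6 CPM (lowest, median, highest) in mTEC hi and at 29.98, 32.5 and 41.4 CPM in mTEC lo. The means of 25.2 ± 1.81 CPM and 34.1 ± 4.52 CPM gave a log2 fold change of -0.44 (SE 0.08). As for Ctsc, the call was lost with scaling by library size alone (log2 fold change -0.15, edgeR adjusted p = 0.0728). Its TPM was 21.9 ± 2.18 in mTEC hi and 23.8 ± 2.49 in mTEC lo.

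**Figure D2:**
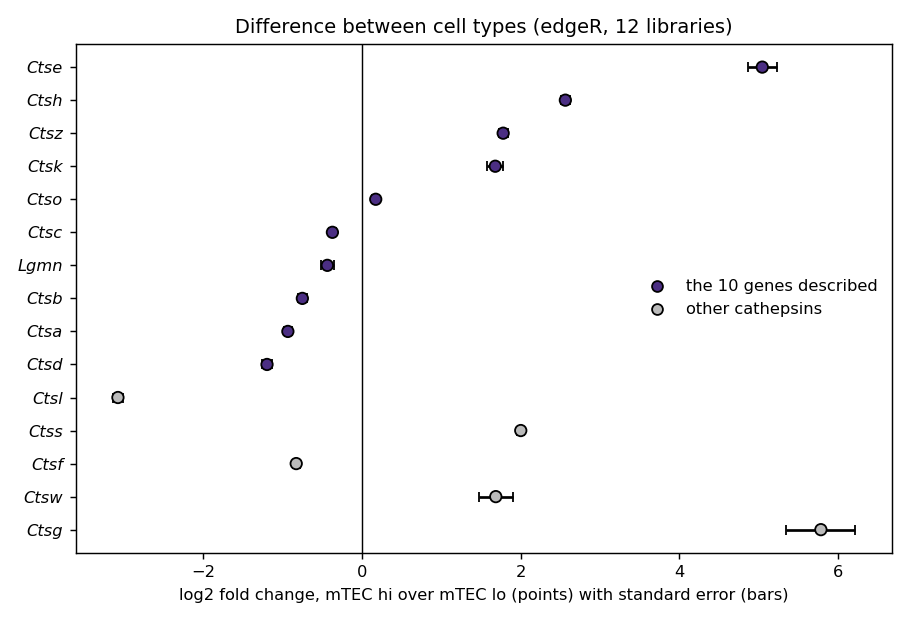
Log2 fold change of mTEC hi over mTEC lo from the edgeR fit over 12 libraries, with its standard error as a bar, for the 10 genes (dark points) and 5 other cathepsins (grey points). The 10 genes run from 5.05 (Ctse) to -1.20 (Ctsd), and Ctsl lies below them at -3.08. Ctse and Ctsg passed the filter on low counts through mTEC hi.

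Per length, the order of the genes changed between the cell types. In mTEC hi the order by mean TPM was Ctsh (508.7), Ctsz (381.6), Ctsd (114.7), Ctsc (98.2), Ctsa (84.0), Ctsb (74.0), Ctso (38.5), Lgmn (21.9), Ctsk (10.8) and Ctse (7.01), and the ranges of neighbours in this order did not overlap. In mTEC lo it was Ctsd (203.3), Ctsa (143.3), Ctsb (99.5), Ctsc (97.0), Ctsz (89.2), Ctsh (71.0), Ctso (27.5), Lgmn (23.8), Ctsk (2.79) and Ctse (0.17). There the ranges of Ctsb and Ctsc, Ctsc and Ctsz, Ctsz and Ctsh, and Ctso and Lgmn overlapped, so that these neighbours were not separated. Ctsh thus led the order in mTEC hi and stood in the middle in mTEC lo, where Ctsd led. These TPM values come from a separate count by the authors, whose totals were 0.507 to 0.535 of the read totals.

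The summed TPM of the 10 genes was 1339 ± 38.7 in mTEC hi and 757.7 ± 25.1 in mTEC lo (SD, n = 6 each), and the 2 sets of libraries did not overlap. Summed as CPM, which does not correct for length, the difference was smaller: 1239 ± 48.3 CPM against 1071 ± 62.0 CPM. Of the summed TPM, Ctsh and Ctsz made up 66.5 ± 0.76% in mTEC hi and 21.2 ± 0.91% in mTEC lo. Ctsd, Ctsa and Ctsb made up 20.4 ± 0.69% and 58.9 ± 1.15%. By catalytic class, the papain family held 83.0 ± 0.62% of the summed TPM in mTEC hi against 51.1 ± 1.21% in mTEC lo. The aspartic proteases held 9.08 ± 0.77% against 26.8 ± 1.36%, nearly all of it Ctsd in both. Within a cell type these shares were close in all 6 libraries: that of Ctsh and Ctsz ran from 65.9% to 67.5% in mTEC hi and from 19.8% to 22.3% in mTEC lo.

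**Figure D3:**
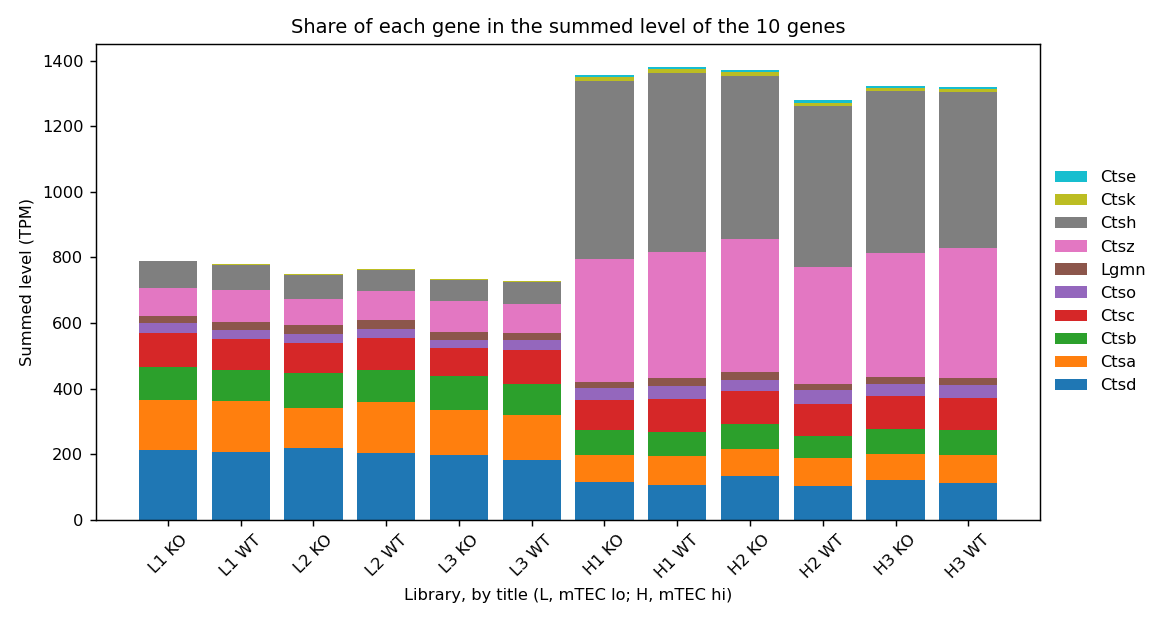
Stacked bars of the level of the 10 genes in each of the 12 libraries, in TPM on an axis that starts at 0, with libraries named by their titles (L, mTEC lo; H, mTEC hi). The bars of mTEC hi are taller (1279 to 1382 TPM against 727.1 to 790.1 TPM), and most of their height is Ctsh and Ctsz.

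The second comparison asked whether loss of Psmb11 changed these genes, with 2 Psmb11-deficient and 2 WT libraries in each cell type. None of the 10 genes passed in mTEC hi, in mTEC lo, or in the test of whether the genotype effect differs between the cell types (edgeR quasi-likelihood test, adjusted p at least 1.0, 0.276 and 0.99985). Few genes passed at all: 0.00375% of the 26642 tested in mTEC hi, 0.015% in mTEC lo and 0.0% for the interaction. At an unadjusted p under 0.05 the 10 genes gave 0 calls in mTEC hi, 3 in mTEC lo and 0 for the interaction. All genes gave 3.45%, 11.3% and 4.41%. DESeq2 also called 0 of the 10 genes in each of the 3 tests.

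Ctsd came closest in mTEC lo. In mTEC hi it was at 59.1 and 69.9 CPM in the Psmb11-deficient and 53.9 and 58.0 CPM in the WT libraries, and in mTEC lo at 143.7 and 157.6 CPM against 128.2 and 111.7 CPM. Both Psmb11-deficient libraries lay above both WT libraries in each cell type, by 1 CPM at the nearest in mTEC hi. The log2 fold changes were 0.21 (SE 0.10, edgeR adjusted p = 1.0) and 0.32 (SE 0.10, edgeR adjusted p = 0.276). Without Psmb11-deficient replicate 2, the library at 69.9 CPM, the mTEC hi value was 0.09.

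Ctsb was at 220.6 and 227.4 CPM in Psmb11-deficient and 194.9 and 210.4 CPM in WT mTEC hi, and at 356.8 and 407.2 CPM against 340.0 and 315.8 CPM in mTEC lo. Its log2 fold changes were 0.15 (SE 0.09) and 0.21 (SE 0.09), and the latter ran from 0.11 to 0.31 with each library left out. Ctsh was at 347.0 and 331.9 CPM against 317.5 and 311.7 CPM in mTEC hi, and at 57.4 and 60.3 CPM against 52.0 and 46.1 CPM in mTEC lo. Its log2 fold changes were 0.12 (SE 0.09) and 0.26 (SE 0.09, edgeR adjusted p = 0.31). As for Ctsd, the Psmb11-deficient libraries of Ctsb and Ctsh lay above the WT libraries in both cell types, and neither gene passed.

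Of the remaining genes, 2 were separated in a single cell type. Ctsk was above WT without overlap in mTEC hi (10.9 and 10.6 CPM against 7.69 and 9.66 CPM, log2 fold change 0.32, SE 0.19) and overlapped in mTEC lo (0.04, SE 0.20). Without WT replicate 2 the mTEC hi value was 0.16, and without WT replicate 3 it was 0.49. Ctsc overlapped in mTEC hi (-0.02, SE 0.09) and was above WT without overlap in mTEC lo (0.08, SE 0.09). The groups of Ctse, Ctso, Ctsz, Lgmn and Ctsa overlapped in both cell types. Their log2 fold changes lay between -0.03 (Ctsa) and 0.13 (Ctse) in mTEC hi, and in mTEC lo between -0.01 (Ctsa) and 0.43 (Ctse, SE 0.44, at under 1 CPM).

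Counted over the 10 genes, 8 were above WT in mTEC hi and 9 in mTEC lo, whether called or not, against 51.3% and 47.6% of all genes. The groups of 2 did not overlap, with Psmb11-deficient higher, for 4 genes in each cell type, against 18.5% of all genes in mTEC hi and 18.6% in mTEC lo; for 0 of the 10 genes they were separated the other way. The differences between the cell types in the genotype effect ran from -0.29 (Ctse, SE 0.50) to 0.28 (Ctsk, SE 0.27). All 10 thymocyte markers were above WT in each cell type, none passing. Their summed levels were 179.3 to 299.0 CPM against 165.7 to 168.5 CPM in mTEC hi. In mTEC lo they were 76.9 to 115.2 CPM against 45.2 to 52.7 CPM. Titles with number 1 enter this comparison only as Psmb11-deficient and those with number 3 only as WT. Number and genotype are thus partly confounded. In mTEC hi every thymocyte marker was highest in the 2 libraries of number 1. Rag1 was at 42.0 CPM (H1_KO) and 22.7 CPM (H1_WT), against 12.3 CPM (H2_KO) and 10.9 CPM (H3_KO). In mTEC lo this did not hold for every marker. Tuft cell markers were below WT in 6 of 6 in mTEC hi and 5 of 6 in mTEC lo, none passing. Their summed levels overlapped in mTEC hi (246.24 to 290.45 CPM against 267.65 to 364.67 CPM). In mTEC lo they did not (1523 to 1612 CPM against 1750 to 1757 CPM). Of 5 erythroid markers 1 was called in mTEC lo. The part of these in the values of the proteases was not tested.

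With genotype taken from the title for all 12 libraries, each number in the titles has a knockout and a WT library in each cell type, which makes 6 pairs. Ctsd was higher under the knockout title in 6 of 6 pairs, as were 3.08% of all genes, and it was the only one of the 10 genes with that count. Outside the 10, the cathepsin genes Ctsl and Ctss also reached 6 of 6. Ctsb and Ctse were higher in 5 of 6 pairs (at least 5 of 6 was reached by 14.8% of all genes), and Ctsa in 1 of 6. None of the 10 genes passed under this assignment either, with 0.00379% of all genes called in mTEC hi and 0.0114% in mTEC lo. The nearest were Ctsb (log2 fold change 0.23, edgeR adjusted p = 0.174) and Ctsd (adjusted p = 0.184), both in mTEC lo.

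**Figure D4:**
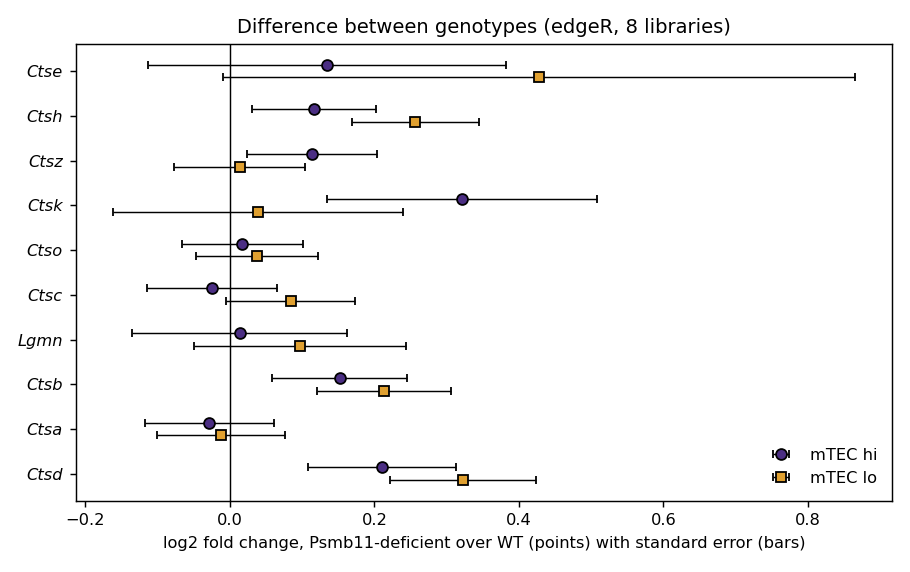
Log2 fold change of Psmb11-deficient over WT for the 10 genes in mTEC hi (circles) and mTEC lo (squares), from the edgeR fit over 8 libraries, with standard errors as bars. All values lie between -0.03 and 0.43, and none of the 20 passed at an adjusted p of 0.05.

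Other cathepsins gave the context of the 10 genes. Of 5 tested, Ctss and Ctsw were higher in mTEC hi and Ctsl and Ctsf were lower. Ctsg had 714 reads over the mTEC hi libraries and 11 over the mTEC lo libraries. It passed the filter through mTEC hi, so its direction was fixed by it and is not counted. Ctsl, the gene of cathepsin L, was at 204.3 ± 20.8 CPM in mTEC hi against 1717 ± 134 CPM in mTEC lo (log2 fold change -3.08, SE 0.07), a larger fall than that of any of the 10 genes. The placental cathepsins, a rodent cluster of genes on chromosome 13, had 9.35 to 13.2 CPM summed in mTEC hi and 0.0 to 0.09 CPM in mTEC lo. Of the 8 genes 6 passed the filter, through their reads in mTEC hi, so their direction was fixed by it and is not counted. Ctsj had 1581 reads over the 6 mTEC hi libraries and 4 over the 6 mTEC lo libraries, and Cts7 had 325 reads against 1. As related genes they may share reads, which was not tested, and exons of Ctsm, Cts3 and Cts8 overlap those of other genes. The single genes are thus uncertain.

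The cystatins and stefins inhibit papain-family cathepsins. Of the 13 genes, Cst8, Cst9, Cst10, Cst11, Cst12 and Cst13 were at or under 0.04 CPM in mTEC lo and passed the filter through mTEC hi, so no count of the list is read. Cst8 was at 5.08 ± 0.67 CPM against 0.01 ± 0.02 CPM, and Cst9 at 5.30 ± 0.66 CPM against 0.04 ± 0.04 CPM. Cst3, cystatin C, was lower, at 214.4 ± 20.7 CPM against 360.4 ± 37.7 CPM. Since Cst3 and Cstb hold most of the reads, the summed level of the list overlapped between the cell types (519.7 to 633.3 CPM against 548.1 to 702.3 CPM).

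Enzymes delivered to lysosomes depend on sorting receptors and on the mannose-6-phosphate tag. Of 7 sorting genes 2 were higher and 5 lower in mTEC hi (median log2 fold change -0.73). Scarb2, the receptor that carries beta-glucocerebrosidase, was at 74.0 ± 2.15 CPM against 373.1 ± 14.8 CPM, and Gnptab, a subunit of the enzyme that makes the tag, at 58.3 ± 1.66 CPM against 127.3 ± 7.11 CPM. Of 30 other lysosomal hydrolases 7 were higher and 21 lower (median -0.47), with Arsb, a sulfatase, at 2.10. Of 14 lysosomal membrane proteins 2 were higher and 10 lower (median -0.60), with Laptm4a at -1.63 and the sialic acid exporter Slc17a5 at 1.39. Of 7 further lysosomal peptidases 3 were higher and 4 lower, among the former the carboxypeptidase Scpep1 (log2 fold change 1.75) and the aspartic protease Napsa (4.93).

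Subunits of the V-ATPase, the pump that acidifies lysosomes, were split: 9 of 15 were higher and 5 lower in mTEC hi (median 0.13, against 0.08 for all genes), with Atp6v0a1 at 1.83 and Atp6v1c1 at 1.43. That split depended on the scaling, as 13 were higher and 2 lower with library size alone and 9 and 2 with RLE size factors. Of 6 genes of TFEB, its relatives and their regulators, Tfec was higher (1.01 ± 0.24 CPM against 0.07 ± 0.05 CPM) and Flcn, a negative regulator (-0.77), Tfe3 (-0.30) and Fnip1 (-0.57) were lower. Tfec passed the filter through mTEC hi, so its direction was fixed by it. Tfeb itself did not pass (16.9 ± 1.28 CPM against 15.4 ± 2.16 CPM, edgeR adjusted p = 0.156). Under RLE size factors, library size alone, DESeq2 and RSEM counts 2 of the 6 were higher, Tfec among them. Of 9 genes of MHC class II peptide loading and invariant chain processing 7 were higher and 0 lower (median 1.29), with H2-Ob at 2.95 and H2-Oa at 2.37, the subunits of the loading inhibitor H2-O. Cells were sorted on surface MHC class II, so this list is not independent of the sort.

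**Figure D5:**
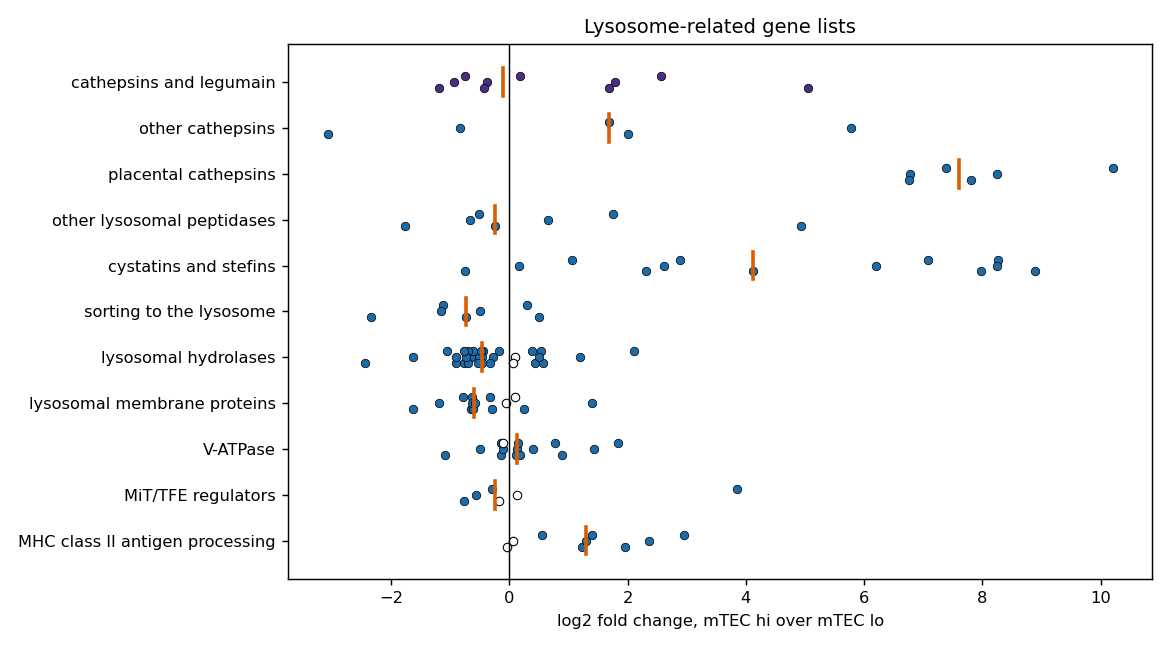
Log2 fold change of mTEC hi over mTEC lo for each tested gene of the lysosome-related lists. Filled points passed at an adjusted p of 0.05, open points did not, and the orange bar is the median of the list, at -0.10 for the 10 genes. The placental cathepsins, many cystatins, Ctsg, Tfec and, of the 10 genes, Ctse passed the filter through mTEC hi alone.

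Genes with the pattern most like those of Ctse and Ctsd, the genes with the greatest rise and fall among the 10, were sought among the 11255 other genes that averaged 10 CPM or more. The measure was the root mean square difference of log2(CPM + 0.5) over 12 libraries after centring each gene, in which the difference between the cell types has most weight. Nearest to Ctse were Bub1, a kinase of the mitotic checkpoint (0.148), Utf1 (0.150) and the mitotic kinase gene Pbk (0.153). The added 0.5 CPM exceeds the mean of Ctse in mTEC lo (0.28 CPM). It shrinks the change of Ctse, so these matches depend on it. Ctse itself averaged less than the 10 CPM asked of the other genes. Nearest to Ctsd were Myl12a, a myosin regulatory light chain (0.0765), H6pd, a dehydrogenase of the endoplasmic reticulum (0.0817), and Gm16136 (0.0842). Bub1 stood at 23.7 ± 1.91 CPM in mTEC hi against 1.45 ± 0.17 CPM in mTEC lo, and Myl12a at 132.0 ± 5.77 CPM and 303.8 ± 24.5 CPM.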

How the data were processed

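The data are 12 polyadenylated RNA libraries from a TruSeq kit, per the labels. The authors deposited read counts per gene without normalisation; the column that ignores strand was used. The authors also deposited expected counts and TPM. RSEM 1.2.28, STAR 2.5.1b and CASAVA 1.8.2 are named in the submitters' processing notes, with the human build name GRCh38, but the identifiers are of the mouse; which annotation was used is not stated. Of 50600 identifiers 50376 were matched to GENCODE M21 (GRCm38). Reads in no gene were 13.0% to 15.8% of the total in mTEC hi and 7.42% to 11.1% in mTEC lo, and were left out.

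Analyses used R 4.3.3 and edgeR 4.0.16: filterByExpr (minimum count 10, total 15), TMM scaling, quasi-likelihood F test, Benjamini-Hochberg threshold 0.05. CPM are TMM-scaled; errors are SD over 6 libraries. The fit of cell type used all 12 libraries, with genotype class as covariate. Genotypes and the interaction were fitted in a 4-group model over 8 libraries with 4 residual degrees of freedom. The fits were tested on simulated data. Between genotypes, 8% of simulated 1.25-fold changes were recovered in mTEC hi and 2% in mTEC lo. For 1.5-fold changes these were 42% and 60%. A 1.25-fold genotype difference would thus seldom be called. Alternatives included DESeq2 1.42.0, expected counts rounded, other scalings, no filter and left-out libraries.

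The 10 genes and the lists were chosen with earlier results of these data known. Named are the 10 genes, Psmb11, the 2 genes of lowest p per list, the 3 nearest patterns, and markers. 1 gene that this rule takes is not reported here. Cst3, Cstb, Ctsw, Ctsg, Ctsf, Tfeb, Tfe3, Fnip1, Cst10 to Cst13, Epcam, Krt5, Krt14 and Aire were named after their values were seen. So were Rag1, Fcgr1, Ms4a1 and Elane.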

Additional observations from a re-analysis of the deposited data

Results flagged for a closer look

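The 6 libraries of each cell type were examined for a single value apart from the rest, for the 10 genes together with Ctsl and Ctss, which makes 24 sets, and 2 were found by Dixon's criterion. Chance alone marks about 1 in 20 such sets. Ctsd in mTEC hi was 69.9 CPM in Psmb11-deficient replicate 2, while the other 5 libraries lay between 52.8 and 59.1 CPM. This is 1 of the 2 Psmb11-deficient libraries behind the mTEC hi value of Ctsd, and without it the log2 fold change was 0.09 in place of 0.21. Ctsz in mTEC lo was 102.0 CPM in replicate 3 of the libraries with conflicting labels, while the other 5 lay between 84.5 and 90.5 CPM. That library took no part in the comparison of genotypes.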

How the results depend on the processing

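Leaving out each library in turn kept 5 of the 10 genes higher and 5 lower in mTEC hi. Ctse, whose direction the filter fixed, is among those counted as higher here. Scaling by library size alone left 3 lower, without Ctsc and Lgmn, and a minimum change of 1.5-fold left 4 higher (Ctse, Ctsh, Ctsk and Ctsz) and 3 lower (Ctsd, Ctsa and Ctsb). The same minimum left 2 higher and 9 lower of the hydrolases, 1 and 3 of the membrane proteins, 0 and 4 of the sorting genes, 2 and 2 of the other peptidases, 4 and 1 of the V-ATPase subunits and 1 and 1 of TFEB and its relatives. Library size alone made 4 membrane proteins higher. V-ATPase subunits lower in mTEC hi were 2 under DESeq2 and RSEM counts and 3 without the filter, with the 8 undisputed libraries or without mTEC hi WT replicate 2. Without mTEC lo replicate 3 of conflicting labels, 2 of TFEB and its relatives were higher. All counts of this list as higher include Tfec, whose direction the filter fixed. With the 8 undisputed libraries 4 of the 10 genes were higher, without Ctso. Between the genotypes 0 of the 10 genes were called under every alternative run, including the block by the number in the title. Deviations of mTEC hi and mTEC lo libraries of one title correlated at 0.0092 to 0.12. For 1_KO (0.12 against 0.069), 1_WT (0.066 against 0.023) and 2_KO (0.12 against 0.045) this lay above the highest value with another title. For 2_WT, 3_KO and 3_WT it lay below. Knockout and WT titles of one number correlated at -0.03 to 0.089. Only number 1 lay above the highest value with another number (0.089 against -0.046 in mTEC hi, 0.076 against -0.025 in mTEC lo). The cause was not tested. With the number as a replicate block, 0 genes of the 10 were called and 45 of all genes in mTEC lo, against 4 without.

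Counts over all genes between genotypes in mTEC lo were 158 with DESeq2, 660 without the filter, 263 without Psmb11-deficient replicate 1 and 323 without replicate 2, against 4. In mTEC hi they were 3 with DESeq2 and 42 without the filter, against 1, and for the interaction 9 and 141, against 0. Psmb11 was not called in mTEC hi without Psmb11-deficient replicate 1 (edgeR adjusted p = 0.448) or WT replicate 2 (0.194), nor with genotype from the source name (log2 fold change -0.86 in mTEC hi and -1.10 in mTEC lo).

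Small genotype differences that were not called changed sign, and the cause was not tested. In mTEC hi these were Ctsa (0.0028 with the replicate block, 0.0035 with genotype from the source name), Ctsc (0.040 with the block), Ctso (-0.084 with RSEM counts, -0.042 with genotype from the title, -0.041 with title and block) and Lgmn (-0.027, -0.025 and -0.032 in the same order). In mTEC lo these were Ctsa (0.0033 with RLE size factors, 0.0033 with DESeq2, 0.034 with RSEM counts, 0.017 with the block, 0.059 with the source name), Ctsk (-0.0083 with RSEM counts), Ctsz (-0.027 with RSEM counts, -0.045 with the source name) and Ctsl (-0.048 with the source name). With each library left out, which leaves 1 sample in an arm that is assumed to vary like the others, the log2 fold changes in mTEC hi ran from -0.10 to 0.049 (Ctsa), -0.12 to 0.065 (Ctsc), -0.016 to 0.054 (Ctso) and -0.13 to 0.15 (Lgmn). In mTEC lo they ran from -0.060 to 0.039 (Ctsa), -0.11 to 1.33 (Ctse), -0.14 to 0.21 (Ctsk), -0.0097 to 0.088 (Ctso), -0.038 to 0.070 (Ctsz), -0.13 to 0.30 (Lgmn) and -0.064 to 0.15 (Ctsl). The fit of title genotype with the block was added after seeing the data. Ctse in mTEC lo rests on 7 to 24 reads per library, which limits its genotype difference.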
